A study of Mus musculus with 6 samples.

Results

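Hox genes were described in 6 mouse hearts, 3 wild-type and 3 EphB4 mutant, all of the strain labelled C57B6. A gene was taken as a member when its symbol in the platform annotation was Hox, a cluster letter from a to d and a number, on a probe set that named this gene alone. This gave 33 genes of the 18193 with a probe set of their own, and the probe set of highest mean over the 6 arrays stood for each gene. All 33 matched the RefSeq gene table by gene ID, which lists 39 such genes. Of the other 6, Hoxb8 and Hoxd4 were read only by probe sets shared with a neighbour, and the remaining 4 were not analysed here. Biotin-labelled cRNA made from total RNA of the hearts was read on Affymetrix Mouse430_2 arrays, taken here as 1 mouse per array, and the deposited values were log2 intensities. How EphB4 was mutated, in which cells, and how old the mice were is not stated in the labels. The descriptions of wild-type 1, wild-type 2, mutant 1 and mutant 2 began with the letters eI, and those of wild-type 3 and mutant 3 with eM. The meaning of the letters was not stated. The title of the series concerns ephrin-B2, a ligand of EphB4, in the myocardium while the ventricular wall forms.

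Hox genes encode transcription factors with a homeodomain, and in mammals they lie in clusters A to D, in which genes of the same number are paralogs. Their order along a cluster follows the order in which they are switched on from head to tail of the embryo, so low numbers mark anterior and high numbers posterior tissue. Retinoic acid and Cdx proteins switch the clusters on, Polycomb proteins keep them silent where they are not used, and trithorax proteins keep active ones on. In the embryonic heart, anterior Hox genes are known from progenitors of the second heart field, which build the outflow tract and part of the atria, and from cardiac neural crest cells.

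The CpG-rich starts of Hox genes are the sequences on which Polycomb and trithorax proteins act, and those of 3 members are shown because these genes had the smallest p in one of the comparisons below: Hoxd13 and Hoxa5 between eM and eI hearts, and Hoxa3 between genotypes. Each is the 250 bases before the start in RefSeq (GRCm38.p6), read 5′ to 3′ on the strand of the gene, with every CpG in capitals. Hoxa5 lies at chr6:52204588-52204837 (- strand) and held 28 CpGs, Hoxd13 at chr2:74667975-74668224 (+ strand) with 31, and Hoxa3 at chr6:52213068-52213317 (- strand) with 18.
Hoxa5: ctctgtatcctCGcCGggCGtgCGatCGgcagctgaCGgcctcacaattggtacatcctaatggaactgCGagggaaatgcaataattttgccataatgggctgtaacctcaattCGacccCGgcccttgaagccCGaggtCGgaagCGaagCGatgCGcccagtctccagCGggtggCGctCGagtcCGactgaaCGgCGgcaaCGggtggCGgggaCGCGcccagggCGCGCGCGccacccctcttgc
Hoxd13: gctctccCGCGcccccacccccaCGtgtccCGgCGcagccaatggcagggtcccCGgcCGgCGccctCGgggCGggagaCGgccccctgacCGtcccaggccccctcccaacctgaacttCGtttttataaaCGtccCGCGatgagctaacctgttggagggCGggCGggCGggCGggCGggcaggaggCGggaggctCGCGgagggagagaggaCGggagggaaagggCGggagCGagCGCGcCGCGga
Hoxa3: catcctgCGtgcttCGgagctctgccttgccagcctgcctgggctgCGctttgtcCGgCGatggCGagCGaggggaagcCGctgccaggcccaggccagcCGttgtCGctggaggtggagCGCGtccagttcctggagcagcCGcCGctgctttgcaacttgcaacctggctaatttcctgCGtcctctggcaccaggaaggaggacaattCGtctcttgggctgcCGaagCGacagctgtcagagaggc
Such a window was at hand for 19 members, with a median of 12 CpGs and a range of 2 to 35, against a median of 6 over all 32851 windows of the table. The 4 motifs below were searched on both strands of these windows. The retinoic acid receptor half-site AGGTCA was in 5 of 19 member windows (Hoxb4, Hoxc4, Hoxd3, Hoxd8 and Hoxd10), and 14% of all windows held it. The joint Hox and Pbx motif TGATNNAT was in 2 (Hoxa2 and Hoxb1), and in 7.68% of all. The Cdx motif TTTATG was in 3 (Hoxa7, Hoxd3 and Hoxd11), and in 10.8% of all. The TATA motif TATAAA was in 1, Hoxd13, where it overlaps its own reverse complement, and in 12.4% of all. None of the 4 motifs was in the windows of Hoxa5 and Hoxa3. These are matches of letters in a reference sequence and were not measured on the arrays.

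Over all probe sets the arrays separated mainly by the letters. On principal component 1, with 60.4% of the variance, the eM hearts scored 34.1 (wild-type) and 52.6 (mutant), and the scores of the eI hearts were -24.3 to -17.9. On component 2 (18.4%) wild-type 1 scored 33.8 and the others -21.9 to 2.7. Control probes for actin, whose excess of 3-prime over 5-prime signal reflects RNA quality, gave 0.51 and 0.77 for eM and 0.28 to 0.41 for eI. Wild-type 1 had a higher lower quartile of all probe sets (4.71 against 4.52 to 4.61). The targeted gene Ephb4 read 7.83, 8.20 and 8.06 in the wild-type and 8.14, 7.93 and 8.06 in the mutant hearts, so its transcript does not separate the genotypes. The female transcript Xist read 6.73 and 6.78 in mutants 1 and 3 and 11.51 to 12.33 in the other hearts. Sex is thus partly mixed with genotype, and fully so between the eM hearts. The share of each in a difference cannot be told apart. All 15 of the 15 heart muscle markers listed were past the filter described below (mean of the list 12.65 to 12.71 in eI and 12.83 to 12.84 in eM hearts), and the embryonic globins Hbb-bh1 and Hba-x read 13.11 to 14.45.

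Most Hox genes were too dim to be tested. A probe set was tested when its mean over the 6 hearts was at least 5.38, the limit under which 40% of all probe sets lay. Of the 33 members, 15 passed (45.5%), against 74.6% of all genes and 18.4% of the 38 olfactory receptor genes measured here, a family of receptors of the nose. Probe sets bind with different strength, so readings of different genes were not ranked against each other, and how far a reading lay above background is not known. In RNA of a whole tissue sample, few cells with much of a transcript and many cells with little cannot be told apart.

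By paralog number, the middle of the clusters had the most members past the filter. In groups 4 to 8, which pattern the neck and trunk, 8 of 12 genes passed, with means from 3.19 (Hoxc8) to 8.62 (Hoxa5). In groups 1 to 3, which pattern hindbrain and pharynx, 3 of 7 passed: Hoxa3, Hoxb2 and Hoxb3, with means of 5.80, 6.89 and 6.52. In the posterior groups 9 to 13, 4 of 14 passed: Hoxa9 (7.55), Hoxc9 (7.13), Hoxd13 (5.63) and Hoxa10 (5.45). All 3 members of group 5 passed, and none of those of groups 1 (Hoxb1, Hoxd1), 11 (Hoxa11, Hoxd11) and 12 (Hoxd12). By cluster, 5 of 9 genes of cluster A passed, 4 of 9 of B, 4 of 7 of C and 2 of 8 of D. These shares rest on few genes and were not tested against each other. Hoxb5 (5.41), Hoxa10 (5.45) and Hoxd8 (5.46) passed narrowly, and Hoxd9 (5.37) and Hoxc13 (5.32) narrowly missed. At a stricter filter of 6.64, 5 members remained: Hoxa5, Hoxa7, Hoxa9, Hoxb2 and Hoxc9.

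**Figure D1:**
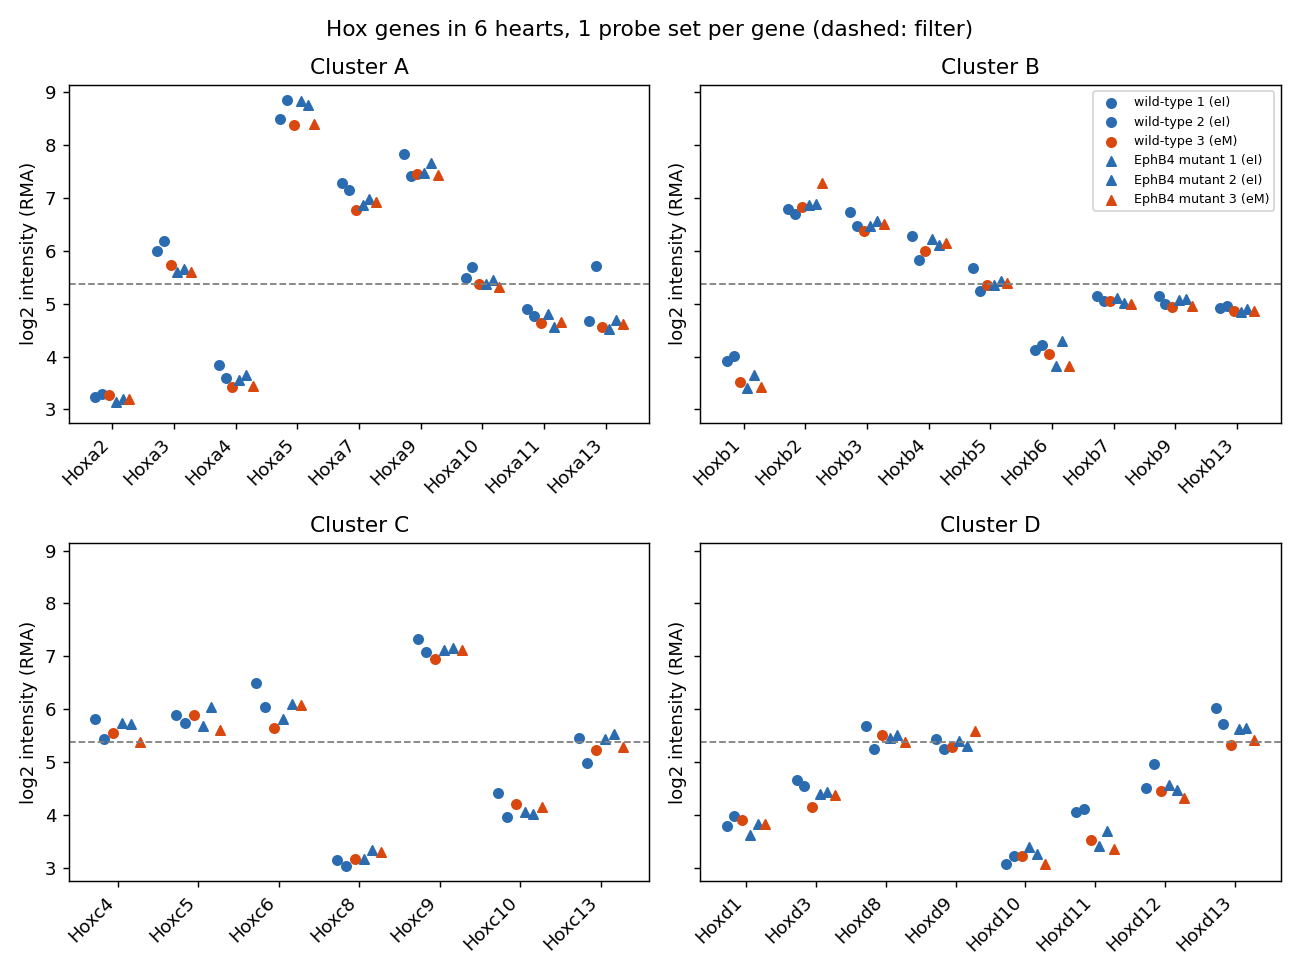
Log2 intensity (y axis) of the 33 Hox genes (x axis, by cluster and paralog number) in each of the 6 hearts, circles for wild-type and triangles for EphB4 mutant, blue for eI and orange for eM; the dashed line is the filter at 5.38. The 6 readings of a gene lie close together: only Hoxa13 spans more than 1 log2 unit, through wild-type 2.

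Readings of 1 gene varied little between hearts. The range from the lowest to the highest heart had a median of 0.44 over the 33 members, the same as the 0.44 over all genes. It ran from 0.12 for Hoxb13, a gene of the tail end of the body axis, to 1.19 for Hoxa13, a gene of limb and genital bud. For 22 of the 33 the range was under 0.5. The range of Hoxa13 came from wild-type 2 alone, at 5.72, where the other 5 hearts read 4.53 to 4.70.

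Probe sets of the same gene often disagreed in level. The 33 genes had 48 probe sets of their own, and 11 genes had more than 1. Between the brightest and the dimmest of a gene, means differed by 0.13 (Hoxa4) to 5.15 (Hoxa5), with a median of 1.93. Of the 15 probe sets not used, 2 passed the filter, 1 of Hoxa3 (5.50) and 1 of Hoxc6 (5.51). Thus for 9 of the 11 genes at most 1 probe set passed. The reading of Hoxa5 is the clearest case: its used probe set had a mean of 8.62 and the other one 3.47. The name of the used one ends in _x_at, the platform's mark for probes that also resemble other sequences. For Hoxa9, a regulator of blood progenitors, the means were 7.55 and 4.65. Which probe set is nearer to the amount of transcript was not tested.

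**Figure D2:**
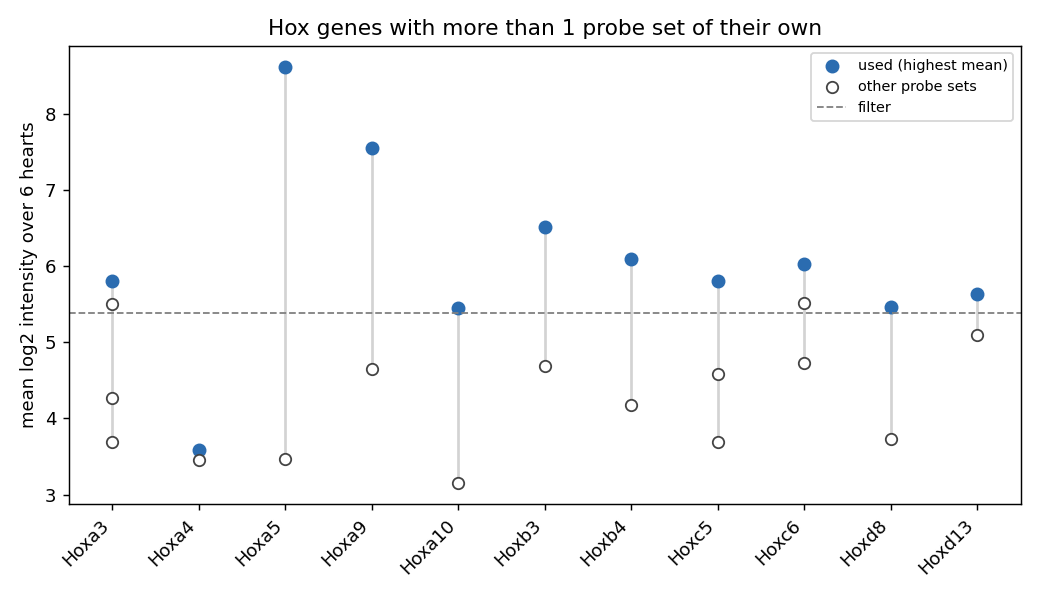
Mean log2 intensity over the 6 hearts (y axis) of every probe set of the 11 Hox genes with more than 1 of their own (x axis), filled for the one used and open for the others; the dashed line is the filter. The points of a gene lie up to 5.15 apart (Hoxa5), and only Hoxa3 and Hoxc6 have a second probe set above the line.

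No Hox gene passed the test between mutant and wild-type hearts. In limma over 13572 genes, 0 of the 15 members passed an adjusted p of 0.05 (0% of all genes did), with a smallest adjusted p of 0.9997, and 1 of 15 had an unadjusted p under 0.05, lower in the mutant (0.936% of all genes, 0.508% lower and 0.427% higher). Differences ran from -0.35 (Hoxa3) to 0.24 log2 (Hoxb2), and no 95% interval of the 15 reached below -0.66 or above 0.56, a 1.58-fold decrease and a 1.48-fold increase. Of the 15, 5 were higher and 10 lower in the mutant (48.9% of all tested genes were lower), with a median of -0.03 against 0.00 over all tested genes. The readings of 2 members did not overlap between genotypes, Hoxa3 and Hoxb2 (4.39% of all tested genes).

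Hoxa3, needed for the thymus and other organs of the pharynx, had the smallest p. It read 6.00, 6.18 and 5.74 in the wild-type hearts and 5.60, 5.66 and 5.60 in the mutant hearts. All 3 mutant readings lay below the lowest wild-type one, wild-type 3. The difference was -0.35 ± 0.13 (SE; 95% interval -0.66 to -0.05; limma unadjusted p = 0.0303, exact permutation p = 0.1, the smallest that 3 against 3 allows). Among eI hearts alone the value was -0.46, and between the pair of eM hearts -0.13. The other Hoxa3 probe set past the filter gave 0.09, the opposite sign, and the 2 dim ones -0.32 and -0.04.

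Hoxb2, a hindbrain gene, read 6.79, 6.69 and 6.84 in the wild-type and 6.87, 6.89 and 7.28 in the mutant hearts. The groups barely missed each other, and mutant 3 stood above the rest. Its difference was 0.24 ± 0.13 (SE, unadjusted p = 0.119), with 0.14 within eI and 0.44 within eM.

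Among the central members, Hoxa7 read 7.29, 7.16 and 6.78 in the wild-type and 6.87, 6.99 and 6.92 in the mutant hearts. Hoxb4, a gene of blood stem cells, read 6.29, 5.82 and 6.00 against 6.22, 6.11 and 6.15. Hoxc6, a gene of the upper trunk, read 6.49, 6.04 and 5.64 against 5.81, 6.10 and 6.08. In each of these the mutant readings lay inside the wild-type range, and the differences were -0.15, 0.13 and -0.06. The other Hoxc6 probe set past the filter read 6.32, 5.65 and 5.30 in the wild-type and 5.25, 5.41 and 5.13 in the mutant hearts, a difference of -0.49 between genotypes and -0.44 between eM and eI, so the probe sets of Hoxc6 differed in size of change. Hoxa5, known from lung and neck development, read 8.50, 8.85 and 8.38 against 8.83, 8.77 and 8.40 (difference 0.09). Hoxb5 (-0.03), Hoxc4 (0.02), Hoxc5 (-0.07) and Hoxd8 (-0.03) and the anterior Hoxb3 (-0.02) all had overlapping groups as well.

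The posterior members that could be tested gave no larger differences. Hoxa9 read 7.83, 7.41 and 7.46 in the wild-type and 7.48, 7.67 and 7.44 in the mutant hearts (-0.04). Hoxc9, a gene of the chest level of the spinal cord, read 7.33, 7.09 and 6.95 against 7.12, 7.15 and 7.12 (0.01). The mutant hearts were close together there (SD 0.02), inside the wild-type range. Hoxa10 differed by -0.14 and Hoxd13, a gene of the digits, by -0.13.

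The 18 dim members were fitted without the filter. None passed (limma, unadjusted p from 0.0601 for Hoxd11 upwards). Hoxd11, a limb gene, read 4.05, 4.12 and 3.53 in the wild-type and 3.41, 3.70 and 3.35 in the mutant hearts (-0.41), and the second heart field gene Hoxb1 read 3.92, 4.01 and 3.51 against 3.40, 3.65 and 3.42 (-0.32). In both, wild-type 3 lay with the mutant hearts. Hoxa13 differed by -0.37, through wild-type 2. The other 15 differences lay between -0.20 (Hoxd12) and 0.19 (Hoxc13).

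Wild-type 1 had the largest share of the highest Hox readings. It was the highest of the 6 hearts at 10 of the 15 tested members and at 16 of all 33, whereas it was highest at 22.4% of all tested genes and at 28% of all genes. Among the 18 dim members it was highest at 6 (33.3%), below the 44.4% of all dim genes. The tested members were also dimmer than all tested genes, with median means of 6.03 and 8.38. Over the 38 olfactory receptor genes, mean readings were 5.01 in wild-type 1 and 4.55 to 4.78 in the other hearts. Over the 33 members they were 5.34 and 5.11 to 5.26, so the higher level of this heart is not particular to Hox genes. Wild-type 1 was never the lowest at a member. Its median deviation from a member's mean was 0.19, against -0.09 to 0.02 in the other hearts. Without wild-type 1, the median difference of the 15 members between genotypes was 0.09 in place of -0.03, with 11 higher and 4 lower, so the sign of the small shift over the family changed without this heart. The median was positive under 6 of the 18 alternatives tried, so its sign is not settled. Its higher lower quartile, given above, stands beside this count, and its part in it was not tested.

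**Figure D3:**
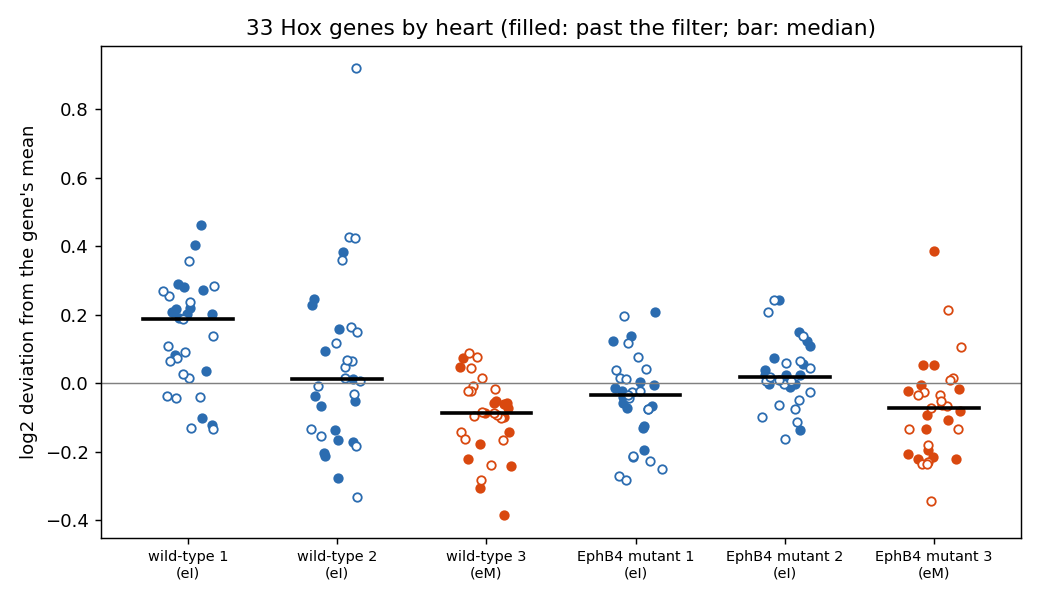
Deviation of each of the 33 Hox genes from its own mean over the 6 hearts (y axis, log2) in each heart (x axis), filled for genes past the filter and open for dim ones, blue for eI and orange for eM; bars are medians. Wild-type 1 has the highest median, 0.19, and both eM hearts have the lowest, -0.09 and -0.07.

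Between eM and eI hearts Hox genes were mostly somewhat lower in eM, but none passed the test. With genotype in the model, limma called 0 of the 15 members, while it called 10.3% of all tested genes (4.47% higher and 5.82% lower). The smallest adjusted p of a member was 0.09645. At an unadjusted p under 0.05 there were 3 members (30.4% of all tested genes), Hoxd13 and Hoxa5 lower (16.7% of all) and Hoxb2 higher (13.7% of all). Differences of the 15 ran from -0.39 to 0.25, and the outermost bounds of their intervals were -0.77 and 0.49 (1.7-fold down, 1.41-fold up). Of the 15, 14 were lower (55.2% of all tested genes), with a median of -0.15 against -0.03 over all tested genes. Over all 33 members without the filter, 27 were lower and the median was -0.13, beside 11055 of 18193 genes and -0.06. The olfactory receptor genes, mostly dim as well, leaned the same way: 33 of 38 were lower in eM, with a median of -0.08. The lean is thus not particular to Hox genes. Only 2 hearts were eM, and the members share their hearts, so these counts describe 6 hearts and are no test of the family.

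The shift was not tested for a difference between genotypes over the family as a whole. Over the 15 members, the median difference of eM from eI was -0.21 among the wild-type hearts and -0.03 among the mutant hearts. The same medians were -0.18 and -0.02 over the olfactory receptor genes, and -0.02 and -0.04 over all tested genes. The median deviation from a member's mean was -0.09 in both eM hearts and 0.21 in wild-type 1, which is on the eI side of the wild-type contrast. Without wild-type 1 the median was -0.09, with 11 lower, and without wild-type 3 it was -0.03, with 13 lower. The readings did not overlap between the letters at 3 of the 15 (44.6% of all tested genes), each lower in eM: Hoxa5, Hoxa10 and Hoxd13 (23.8% of all were apart and lower, 20.8% apart and higher).

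Hoxd13 had the smallest p. It read 6.03, 5.72, 5.63 and 5.65 in the eI hearts, in the order wild-type 1 and 2 and mutant 1 and 2, and 5.32 and 5.41 in the eM hearts wild-type 3 and mutant 3. Both eM readings lay below every eI reading and about the filter of 5.38. The difference was -0.39 ± 0.12 (SE; 95% interval -0.69 to -0.09; limma adjusted p = 0.0964), and it was -0.55 among wild-type and -0.23 among mutant hearts. The dimmer Hoxd13 probe set gave -0.19.

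Hoxa5 read 8.50, 8.85, 8.83 and 8.77 in the eI hearts and 8.38 and 8.40 in the eM hearts. The eM hearts were the lowest, and wild-type 1 was the nearest eI heart to them. The difference was -0.34 ± 0.12 (SE; interval -0.63 to -0.06; adjusted p = 0.113), with -0.29 among wild-type and -0.39 among mutant hearts. Without wild-type 1 it was -0.43 and passed (limma adjusted p = 0.0297), and without the other hearts in turn it did not. The dim second probe set of Hoxa5 gave -0.12.

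Hoxb2 was the only tested member higher in eM, by 0.25 ± 0.099 (SE; interval 0.01 to 0.49; adjusted p = 0.15). Its eI readings were 6.79, 6.69, 6.87 and 6.89, and its eM readings 6.84 and 7.28. Mutant 3 alone exceeded the eI range, while wild-type 3 lay inside it. The differences of Hoxa7 (-0.22), Hoxa3 (-0.19), Hoxa10 (-0.16) and Hoxc4 (-0.21) had intervals that included 0, as had those of Hoxa9 (-0.15), Hoxc9 (-0.14), Hoxb3 (-0.12) and Hoxc6 (-0.25). Hoxb4 (-0.03), Hoxd8 (-0.04), Hoxb5 (-0.06) and Hoxc5 (-0.10) were the closest to 0. Of the dim members, Hoxd11 had the smallest p (-0.38, adjusted p = 0.145 without the filter).

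**Figure D4:**
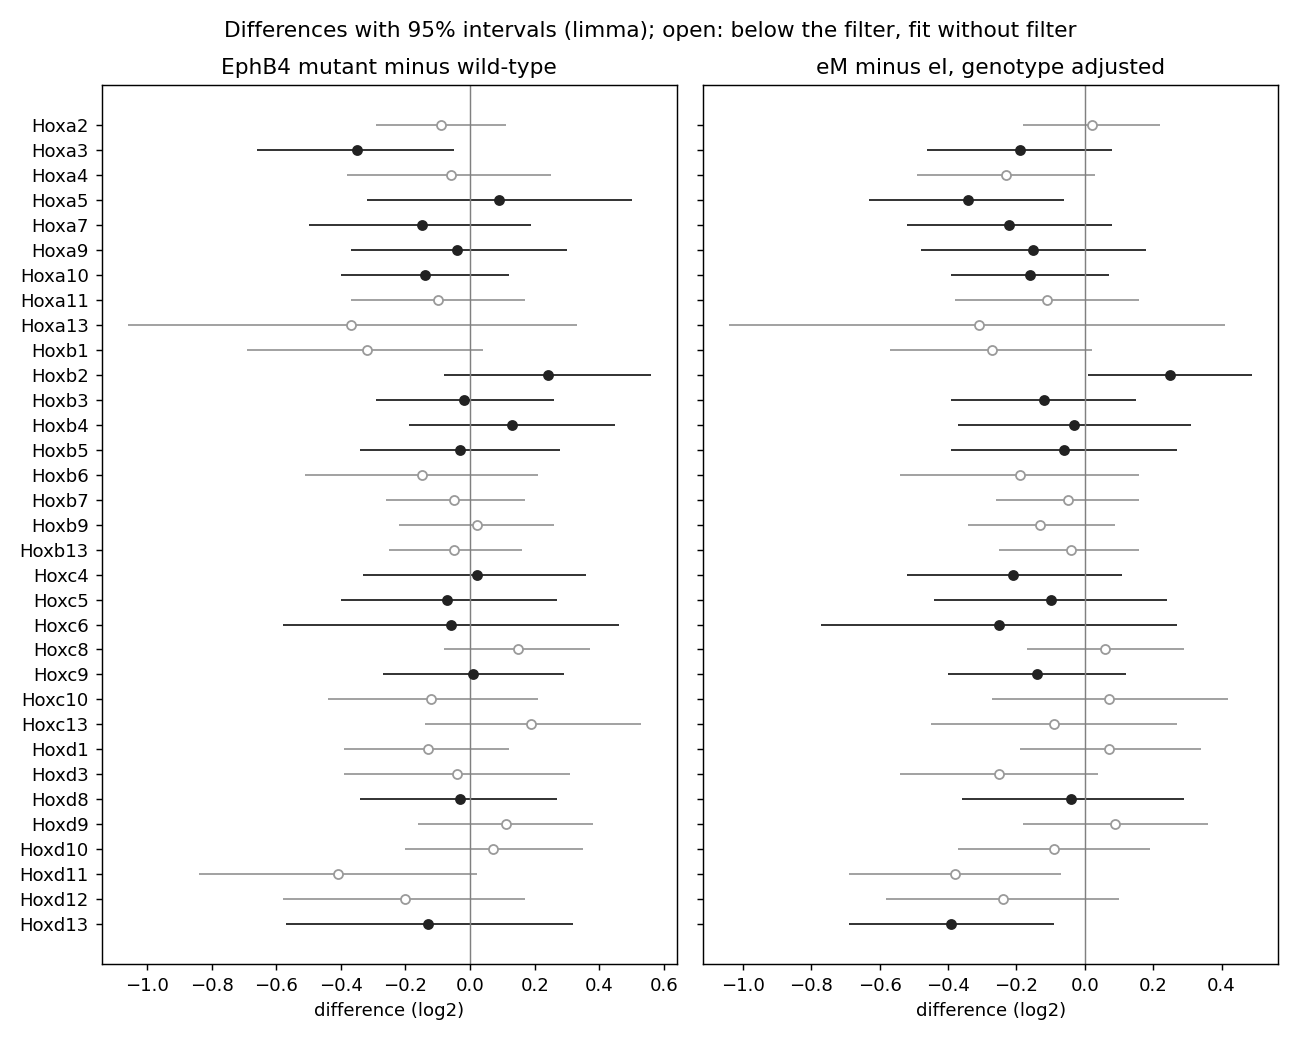
Difference in log2 (x axis) of each Hox gene (y axis) between EphB4 mutant and wild-type hearts (left) and between eM and eI hearts with genotype adjusted (right), with 95% intervals from limma; filled points passed the filter, open ones come from the fit without it. On the left the points lie on both sides of 0, and on the right 27 of 33 lie below it, with Hoxd13 lowest at -0.39.

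Whether the mutant effect on Hox genes differed between the letters was tested with an interaction term. Limma called 0 of the 15 members and 0% of all genes (smallest adjusted p among members 0.7104), and 0 members had an unadjusted p under 0.05 (7.12% of all tested genes, 2.22% with a higher and 4.9% with a lower effect in eM). The effect in eM was the lower one at 4 of 15 members (52.7% of all tested genes). The widest apart was Hoxc6, at -0.31 within eI and 0.43 within eM (difference 0.75, limma unadjusted p = 0.0846). Hoxa7, at -0.30 within eI and 0.14 within eM, had the smallest p among the 15 members (limma unadjusted p = 0.0582). With 1 heart per genotype in eM, the intervals were wide, from -1.05 to 1.65 over the 15. Sex also differed between these hearts (Xist 12.33 in wild-type 3, 6.78 in mutant 3). It cannot be told apart from genotype within eM.

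Transcripts of the opposite strand and shared probe sets added little. Of 5 probe sets for the antisense genes Hoxa11os, Hoxb5os and Hoxd3os1, 1 passed the filter. It was that of Hoxb5os, which read 5.53, 5.22 and 5.60 in the wild-type and 5.63, 5.80 and 5.56 in the mutant hearts (0.21 ± 0.13, SE, unadjusted p = 0.154). The 2 probe sets shared by Hoxd3 and Hoxd4 had means of 5.86 and 4.78, and the 1 shared by Hoxb7 and Hoxb8 had 4.22.

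Of the genes that work with or on the Hox clusters, most passed the filter, and between genotypes 0 passed the test in limma. The TALE proteins of the Pbx, Meis and Pknox families bind DNA together with Hox proteins. All 8 measured cofactors passed the filter, and their median difference between genotypes was -0.10. Medians were 0.01 for 15 tested Cdx and retinoic acid genes, 0.01 for 21 Polycomb genes, 0.06 for 11 trithorax and demethylase genes and 0.01 for 13 genes flanking or inside the clusters. Of the last, Ttll6, next to cluster B, was the only gene of these lists with an unadjusted p under 0.05. It read 6.35, 6.54 and 6.10 in the wild-type and 5.96, 5.93 and 5.83 in the mutant hearts (-0.42, limma unadjusted p = 0.0157).

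Between eM and eI hearts single regulators passed the test, but no such call held in every subset of the hearts. Of the 25 genes called in any list described here and below, 0 passed without mutant 2 and 7 without mutant 1. Without wild-type 2 it was 24, and without wild-type 1 it was 25. Fits without wild-type 3 or mutant 3 leave a lone eM heart and are not counted here. Over all tested genes the number called was 1397, with 2 without mutant 2 and 158 without mutant 1. It was 1676 without wild-type 2 and 1937 without wild-type 1. Among trithorax genes, 3 of 11 rose in eM (4.47% of all tested genes did) and none fell (5.82% of all did). Kmt2a, the methyltransferase that keeps Hox genes active, read 7.85, 7.37, 7.46 and 7.51 in eI and 8.35 and 8.69 in eM hearts (0.97 ± 0.17, SE, limma adjusted p = 0.0267). Kmt2d rose by 0.91 (adjusted p = 0.016) and Kmt2c by 0.69 (adjusted p = 0.0235), and the median of the 11 was 0.27. For Polycomb genes 1 of 21 rose, Jarid2, a partner of the H3K27 methyltransferase (0.58, adjusted p = 0.0176), and 1 fell, Cbx6 (-0.66, adjusted p = 0.03), with a median of 0.06. Of the TALE cofactors 0 of 8 passed, 7 were higher and the median was 0.33. Pbx2 was closest to the threshold (0.35, adjusted p = 0.0505), followed by Pknox1 (0.33, adjusted p = 0.0593), and Meis1 differed by 0.32. The actin 3-prime minus 5-prime values moved with the letters too, as given above, and their part in these differences was not tested.

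Retinoic acid genes went both ways. Aldh1a1, which makes retinoic acid, rose in eM by 1.59 (limma adjusted p = 0.0184). Aldh1a2, the main such enzyme of the early embryo, differed by -0.82 (limma adjusted p = 0.102). The difference of Aldh1a2 was -0.19 among wild-type and -1.44 among mutant hearts, so it came mostly from mutant 3 (6.76, against 7.54 in wild-type 3). Rarb, a receptor and target of retinoic acid, fell by 0.44 (readings 8.27, 8.36, 8.31 and 8.16 in eI, 7.86 and 7.80 in eM, adjusted p = 0.0336). The median of the 15 tested genes was -0.10. Cdx1 and Cdx4 were dim, and Cdx2 passed the filter (mean 6.01, difference -0.17). Of the 13 genes around the clusters, Cbx5 near cluster C rose (0.43, adjusted p = 0.0413) and the other tested genes did not pass, among them Skap2 next to cluster A (-0.30, adjusted p = 0.0695).

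**Figure D5:**
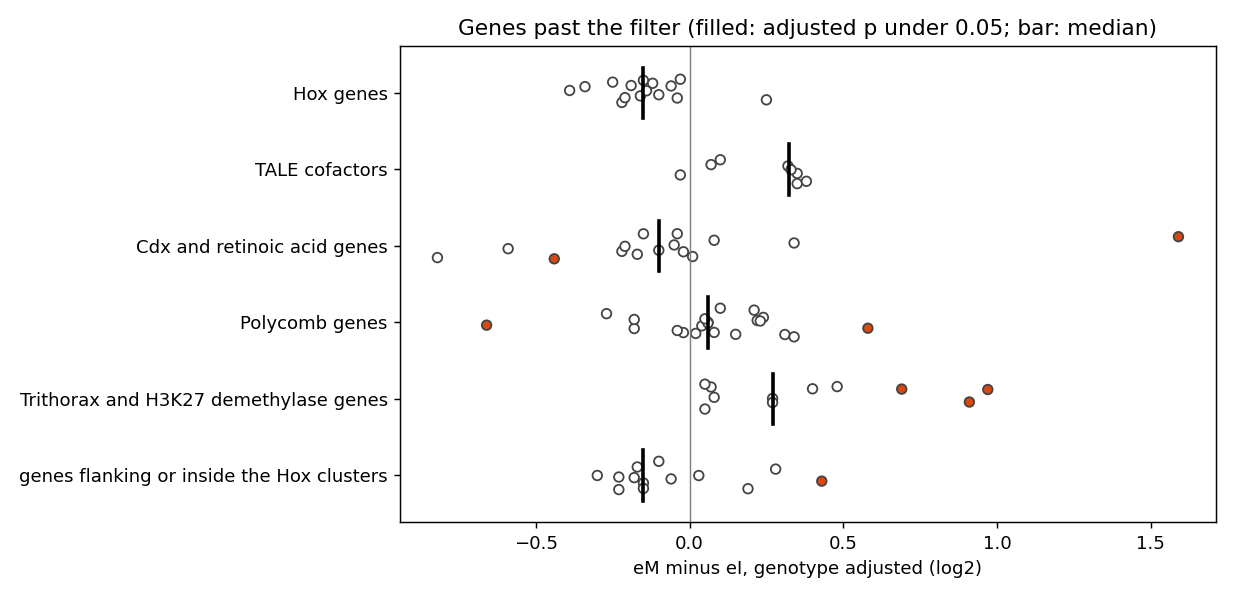
Difference in log2 between eM and eI hearts with genotype adjusted (x axis) for tested Hox genes and 5 lists of regulators and neighbours (y axis); filled points passed an adjusted p of 0.05 in limma and bars are medians. The Hox median is -0.15 with no filled point, and those of TALE cofactors and trithorax genes are 0.33 and 0.27.

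Markers of other tissues that a dissected heart could carry were read beside the Hox genes, since many of these tissues express them. Of all tested genes, 55.2% read lower in eM, with 5.82% called lower and 4.47% called higher. Somite and limb mesoderm, a site of strong Hox expression, read lower in eM at 6 of 6 tested genes (of 12 measured), with a list mean of 5.24 to 5.33 in eI and 4.91 to 5.02 in eM hearts. One of them fell, Tcf15 (-0.66, adjusted p = 0.0171). Of its 12 genes, 6 were dim, Pax3, Pax7 and Myf5 among them. Myod1 passed at the filter (mean 5.38) and differed by -0.12. Blood and macrophage genes were lower at 4 of 4 tested, 3 of which fell (9.80 to 10.47 in eI, 8.98 to 9.06 in eM), and liver genes at 6 of 6, of which Afp fell (6.43 to 8.11 and 5.26 to 5.49). The neural crest list was lower at 3 of 3 (6.52 to 6.81 and 6.33 to 6.42), and Ednrb fell by 0.81. Their part in the lower Hox readings was not tested.

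Other lists had members that rose (4.47% of all tested genes did). Of 5 tested cartilage genes, 2 rose, Col2a1 and Sox9, while Col9a1 differed by -1.35 (limma adjusted p = 0.0765) and Acan by -0.27. The difference of Col9a1 was -0.45 among wild-type and -2.26 among mutant hearts. The cartilage list median was 0.01 (list mean 6.61 to 6.92 in eI, 6.76 to 7.05 in eM). Genes also rose in epicardium (2 of 6, Wt1 and Tbx18) and heart muscle (4 of 15, among them Ryr2 and Myh6). The epicardial list mean was 8.92 to 9.44 in eI and 9.25 to 9.37 in eM hearts. Of its 6 genes 4 read higher in eM and 2 lower, Aldh1a2 (-0.82) and Tcf21 (-0.04), with a median of 0.02. Of the heart muscle genes 8 read higher and 7 lower, with a median of 0.04. In lung and foregut epithelium 2 of 7 rose, the keratins Krt8 and Krt18. The other 5 read lower in eM without passing, among them Sftpc (-0.27), Nkx2-1 (-0.25) and Foxa2 (-0.22), and the list median was -0.22 (list mean 5.93 to 6.06 and 6.00 to 6.19). In lung and foregut mesenchyme 1 of 4 rose, Wnt2 (5.53 to 5.70 and 5.80 to 5.93). There 2 read higher in eM and 2 lower, Foxf1 (-0.26) and Nkx2-3 (-0.22), with a median of 0.03. No gene passed among 6 tested of the second heart field and pharynx (6.63 to 6.78 and 6.58 to 6.98), 5 neural genes (4.96 to 5.03 and 4.92 to 5.17) and the 1 tested mesonephros gene (4.48 to 4.54 and 4.50 to 4.64). Isl1, which marks the second heart field, read 7.61 in wild-type 3 and 4.96 to 5.67 in the other hearts.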

How the data were processed

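Transcript levels of 6 hearts came as log2 intensities that the authors made with RMA, per the submitters' processing notes; no version or inner step of it is named there, and no scanner files were used. Groups and replicate numbers came from the titles, the letters from the descriptions. Nothing beyond the design text's 6 mice says how hearts were taken. Control probe sets (64 of 45101) and the 932 naming several genes were left out, probe sets in the lowest 40% by mean were not tested, and 13572 genes remained. Fits were made with limma 3.58.1 in R 4.3.3 (lmFit, eBayes, two-sided, Benjamini-Hochberg over all tested genes, threshold 0.05). They modelled genotype alone, letters with genotype, and their interaction. On simulated arrays the genotype fit recovered 67% of 2-fold and 7% of 1.5-fold changes, with 0 false calls. The letters fit recovered 98.5% and 67%, with 13 false calls, and no such values are given for the interaction. Figures used matplotlib 3.10.9 in Python 3.11.15. The members and gene lists were chosen with earlier results of these data known. Genes were named by rule: every member, in full up to 12 of smallest p between letters and 6 between genotypes, and up to 4 of smallest p between letters per list. Outside it, Cdx1, Cdx2, Cdx4, Pax3, Pax7, Myf5, Myod1 and Nkx2-1 were chosen after their values were seen. Same-numbered hearts deviated together from their group means (r = 0.18, 0.36 and 0.74 across probe sets). Number 3 is the eM heart of each genotype and the other numbers are eI, so these values cannot show a pairing apart from the letters. The main fits were unpaired. Pairing by the numbers, which only the titles give, was tried as an alternative between genotypes. Alternatives were other filters, normalizations, variance priors, array weights, probe set choices and thresholds, blocks, and leaving out each heart.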

Additional observations from a re-analysis of the deposited data

Results flagged for a closer look

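Among the 4 eI hearts, wild-type 2 stood apart at 2 of the 33 Hox genes. Chance alone would set a heart apart at about 1 gene in 20, so 2 of 33 is near that rate. The same share over all genes was not taken. Hoxa13 read 5.72 in that heart and 4.53 to 4.70 in the other eI hearts. Hoxc13, a gene of hair and nails, read 4.99 there and 5.44 to 5.53 in the others. Both genes were below the filter. Groups of 3 hearts were not examined in this way. By the interaction test, 0 of the 15 tested members were called for a mutant effect that differed between the letters. With 1 heart per genotype in eM, this does not show that the effects were alike.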

How the results depend on the processing

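Between genotypes limma called 0 Hox genes under all 18 alternatives, 0 with the replicate block among them, and the median difference of the tested members ran from -0.08 (without wild-type 3) to 0.09 (without wild-type 1). The pairing by replicate number thus changed no call; it was not applied between eM and eI, since number 3 is the eM heart of each genotype. For the interaction 0 were called under 13 alternatives; leaving out an eM heart leaves nothing to estimate. Between eM and eI hearts 0 were called under 15 of 17 alternatives. The number called was 1 with a threshold of 0.1 (Hoxd13, adjusted p = 0.09645), and from 0 to 1 when each heart was left out, with Hoxa5 passing without wild-type 1; where wild-type 3 or mutant 3 is left out, the lone eM heart is assumed to vary like the rest. The number of all genes called there was 1397, and ran from 0 (wild-type hearts alone, or without mutant 3) to 1937 without wild-type 1 and 2745 with the threshold of 0.1; it was 2 without mutant 2, 158 without mutant 1, 790 without wild-type 3 and 878 with no filter. For the members named in full (6 between genotypes, 12 between letters), 7 of 288 differences under alternatives changed sign. Between genotypes these were Hoxa3 with the probe set of largest SD (0.089) and Hoxd13 without wild-type 1 (0.0403; range -0.313 to 0.0403 when each heart was left out). Between eM and eI they were Hoxc6 without wild-type 3 (range -0.624 to 0.12), Hoxb3 with the mean of its probe sets (0.0709), and Hoxc5 among wild-type hearts alone (0.066), without mutant 2 (0.0035) and without mutant 3 (range -0.266 to 0.066). Over all 15 tested members, 6 changed sign between genotypes without wild-type 1 (Hoxa9, Hoxb3, Hoxb5, Hoxc6, Hoxd8 and Hoxd13) and 4 with array weights, and 3 between eM and eI without wild-type 1 (Hoxb4, Hoxb5 and Hoxd8). The cause was not tested. How far dim members lay above background is not known.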
